A study of Mus musculus with 4 samples.

Results

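The genes Slc2a1, Slc2a2, Slc2a3 and Slc2a4 encode the facilitative glucose transporters GLUT1, GLUT2, GLUT3 and GLUT4. They were taken as all probes of the array whose RefSeq accession maps to 1 of these 4 symbols, which gave 5 probes of 41174. Slc2a2 had 2 probes and the other members had 1 each. All 4 genes were kept among the 31073 genes or accessions tested, and all 5 probes were well above background in both channels on all 4 arrays. The members were selected on their log2 ratios in the comparison reported here, so these values are given as a description and without a test.

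RNA was measured in livers of C57Bl/6 male mice, 3 months of age, on 4 Agilent arrays with 2 colours. The Cy3 channel held RNA from Wrn mutant mice that drank water with 0.4% vitamin C from weaning on (4 livers), and the Cy5 channel held RNA from untreated Wrn mutant mice (4 livers). All 8 livers carried a mutation of Wrn, whose product is a DNA helicase of the RecQ family that is deficient in Werner syndrome of humans. How the allele was made is not given in the sources used here, and wild-type livers are not analysed here. Each array held 1 treated and 1 untreated liver of the same replicate number, and the question was how the vitamin C treatment altered liver expression.

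All arrays ran with the same dye orientation (0 dye swaps) on 1 slide, so a dye effect of a probe and an effect of the treatment cannot be told apart. The direction of every ratio rests on the dye labels: the sample titles name the treated liver first, but the authors' deposited table of log2 values runs as untreated over treated. If the dyes were exchanged, each sign given here would turn. Median spot signals were 379.5 to 530 in Cy3 and 813 to 962 in Cy5, against 62 to 67 and 66 to 80 on negative control spots. Across 31062 genes with values on all arrays, the log2 ratios of replicates 1, 3 and 4 correlated with each other at r = 0.60 to 0.78, whereas replicate 2 correlated with them at -0.18 to 0.020 (across genes, which are not independent replicates). Hepatocyte markers such as Alb and F2 were among the brightest transcripts, at mean log2 intensities of 18.0 and 17.8.

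Facilitative transporters let glucose pass the plasma membrane down its gradient, without coupling to an ion. GLUT2 is the main glucose transporter of hepatocytes and works in both directions, GLUT1 serves basal uptake in many cells, GLUT3 is a transporter of high affinity best known from neurons, and GLUT4 is the insulin-responsive transporter of muscle and fat, held in vesicles until insulin acts. GLUT1, GLUT3 and GLUT4 also carry dehydroascorbate, the oxidised form of vitamin C, while ascorbate itself enters cells through the sodium-coupled carriers encoded by Slc23a1 and Slc23a2. Mice make vitamin C in the liver.

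Relative to untreated livers, the log2 ratio of Slc2a1 lay below 0 on all 4 arrays, that of Slc2a3 lay below 0 on 3 of 4, Slc2a2 lay on both sides of 0, and Slc2a4 spanned more than any other member. The mean log2 ratios of vitamin C over untreated were -0.34 ± 0.17 for Slc2a1, 0.099 ± 0.38 for the brighter probe of Slc2a2, -0.33 ± 0.26 for Slc2a3 and 0.73 ± 1.24 for Slc2a4 (SD, n = 4). Over all genes the median log2 ratio was -0.015 and the median SD was 0.13. In limma's test 0 of 31073 genes (0%) had an adjusted p under 0.05, the members among them. Without adjustment, 8610 genes (27.7%) had p under 0.05, and limma's fit of separate channels, where the array was a random block, called 882. The count was 8753 without replicate 2 and 9634 with median centring in place of loess. For any 1 gene, 4 pairs allow no two-sided p under 0.125 in an exact test that flips signs. The labels call the pairs biological replicates. In whole liver, fewer cells of a type and less RNA per cell cannot be told apart.

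**Figure D1:**
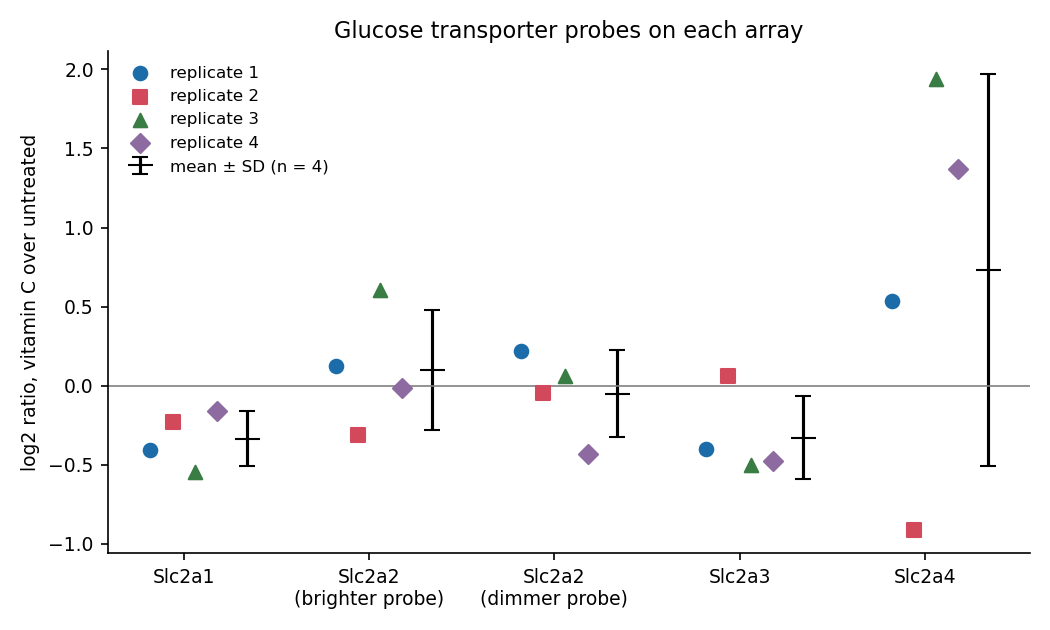
Log2 ratio of vitamin C over untreated (vertical axis) for the 5 probes of the 4 transporter genes. Each symbol is 1 array, and the black bar gives the mean ± SD of 4 arrays; the 4 symbols of Slc2a1 sit between -0.55 and -0.16, and those of Slc2a4 between -0.92 and 1.94.

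Slc2a2 is the member by which hepatocytes take up and release glucose. Its brighter probe (A_51_P185693, mean log2 intensity 15.7) was exceeded in intensity by the probes of only 1.76% of genes. It had normalized log2 levels of 15.83, 15.55, 16.12 and 15.44 in vitamin C livers 1 to 4, against 15.71, 15.86, 15.52 and 15.46 in untreated livers 1 to 4. The groups overlapped: treated liver 3 was the highest of all 8 and treated liver 4 the lowest.

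The resulting log2 ratios of Slc2a2 were 0.12, -0.31, 0.60 and -0.016 on replicates 1 to 4. The positive mean rests on replicate 3, since the mean was -0.069 without it. The mean was 0.24 without replicate 2, -0.089 with arrays centred on the median in place of loess, and 0.024 as a mean over both probes.

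The dimmer Slc2a2 probe (A_52_P409988, mean log2 intensity 13.1) gave log2 ratios of 0.22, -0.048, 0.059 and -0.43, with a mean of -0.050 ± 0.28 (SD, n = 4). Its levels were 13.32, 12.95, 13.06 and 12.81 in vitamin C livers, against 13.10, 13.00, 13.01 and 13.24 in untreated livers, so the groups overlapped here as well. The probes disagreed most on replicates 3 and 4, where the brighter probe's log2 ratio was above that of the dimmer probe by 0.54 and 0.42; on replicates 1 and 2 this difference was -0.098 and -0.26. Both probes carry the same accession, and where they lie in the transcript is not given in the sources used here.

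Slc2a1 encodes the transporter of basal uptake. Its probe (A_51_P464738, mean log2 intensity 11.6) had normalized log2 levels of 11.42, 11.56, 11.38 and 11.51 in vitamin C livers 1 to 4, against 11.83, 11.79, 11.92 and 11.67 in untreated livers 1 to 4. All 4 treated livers lay below all 4 untreated livers. Among all genes, 2.54% had such a complete separation in this direction and 4.49% in the opposite one, and 16.1% had a log2 ratio below 0 on all 4 arrays.

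The log2 ratios of Slc2a1 were -0.41, -0.23, -0.55 and -0.16 on replicates 1 to 4, which makes a mean fold of 0.793. The levels averaged 11.47 ± 0.084 in vitamin C livers and 11.80 ± 0.11 in untreated livers (SD, n = 4 each), and Slc2a1 was the member with the smallest spread between arrays. The separation of the levels and the direction of the ratios are those of the comparison by which the gene was picked, and nothing is read from them. The median log2 ratio of genes of like intensity was -0.029, and Slc2a1 had -0.31 once this running median was taken off.

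Slc2a3 encodes a transporter of high affinity. Its probe (A_52_P354744, mean log2 intensity 9.18) had normalized log2 levels of 9.11, 9.33, 8.89 and 8.74 in vitamin C livers 1 to 4, against 9.51, 9.27, 9.40 and 9.21 in untreated livers 1 to 4. Treated livers 1, 3 and 4 lay below every untreated liver, while treated liver 2 lay within the untreated range. The log2 ratios were -0.40, 0.060, -0.50 and -0.48, so only replicate 2 was above 0, and the mean was -0.46 without it. Negative control spots had median log2 intensities of 5.89 to 6.02.

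Slc2a4 encodes the insulin-responsive transporter, and its probe (A_51_P217498, mean log2 intensity 9.02) was the member whose ratio differed most between pairs of livers. Its normalized log2 levels were 9.14, 8.49, 10.05 and 9.89 in vitamin C livers 1 to 4, against 8.61, 9.40, 8.11 and 8.52 in untreated livers 1 to 4. Treated livers 3 and 4 lay above every untreated liver, but treated liver 2 lay below untreated livers 1, 2 and 4, and the groups overlapped. The levels averaged 9.39 ± 0.72 in vitamin C livers and 8.66 ± 0.54 in untreated livers (SD, n = 4 each), so neither group was uniform.

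**Figure D2:**
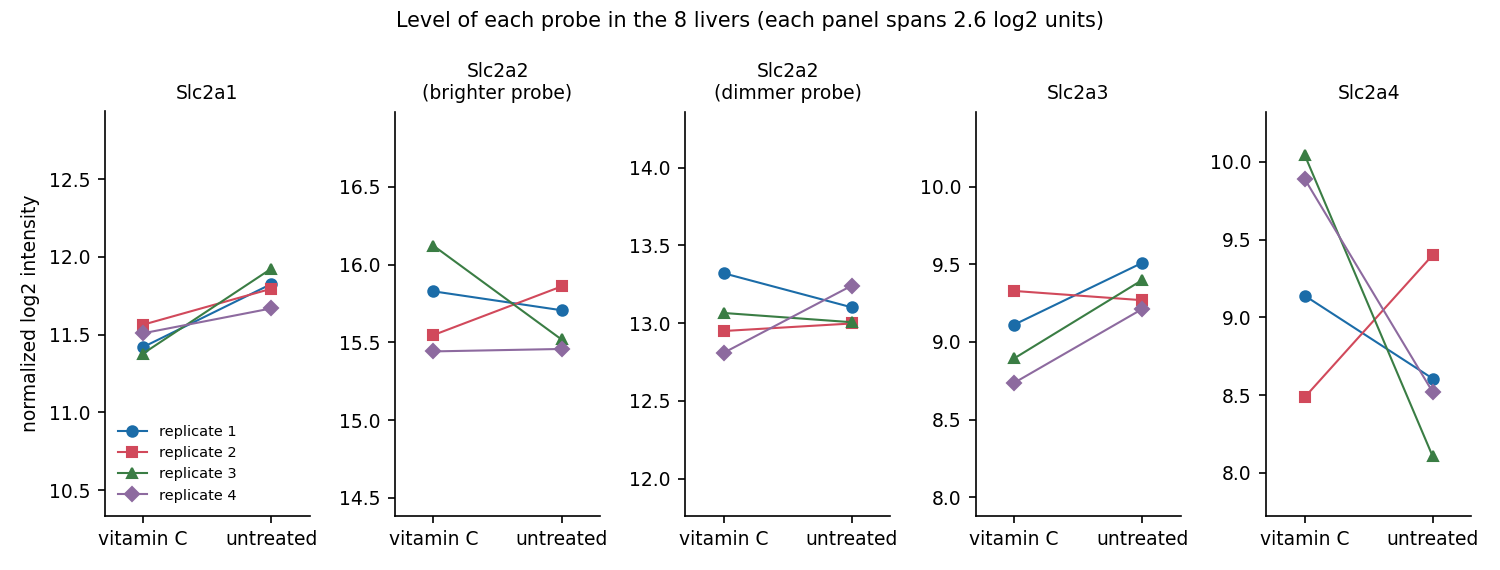
Normalized log2 intensity of each probe (vertical axis, the same span in every panel) in the vitamin C livers (left) and untreated livers (right) of each panel. A line joins the 2 livers hybridised to 1 array; the treated levels of Slc2a1 (11.38 to 11.56) lie below the untreated ones (11.67 to 11.92), while the lines of Slc2a4 cross.

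The log2 ratios of Slc2a4 were 0.53, -0.92, 1.94 and 1.37 on replicates 1 to 4, or folds of 1.45, 0.530, 3.84 and 2.59. The SD of 1.24 was larger than that of 99.9% of genes, and 30 of 31073 genes had a larger one. Leaving out replicate 2 gave a mean of 1.28, leaving out replicate 3 gave 0.33 and leaving out replicate 4 gave 0.52.

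The Slc2a4 probe was printed as 10 spots on each array, which shows how well 1 pair of livers was measured. The spots gave log2 ratios of 0.44 to 0.63 on replicate 1 (7 spots, after outlier flags), -1.17 to -0.80 on replicate 2, 1.49 to 2.40 on replicate 3 and 1.18 to 1.58 on replicate 4 (10 spots each). Only the ranges of replicates 3 and 4 overlapped. The SD between spots was 0.078, 0.12, 0.25 and 0.13 on replicates 1 to 4, against pooled SDs of 0.073 to 0.083 over the 245 probes with repeat spots, and 0.14 was the median SD between arrays of those probes. None of these 245 probes (0) had a larger SD between arrays than Slc2a4. The spread between spots covers the measurement of 1 pair of livers and not the differences between pairs.

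**Figure D3:**
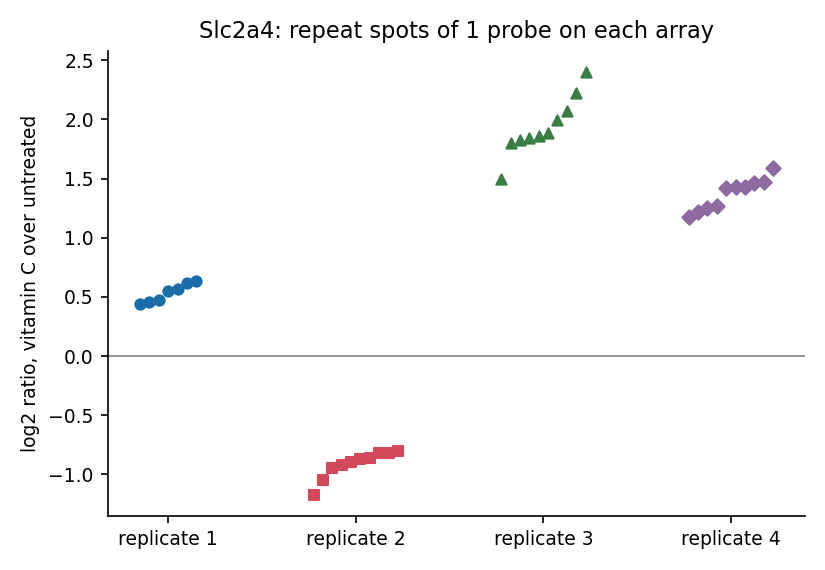
Log2 ratio of vitamin C over untreated (vertical axis) of each used repeat spot of the Slc2a4 probe, with spots of an array sorted by value. All spots of replicate 2 lie between -1.17 and -0.80, and all spots of replicates 1, 3 and 4 lie above 0.

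GLUT4 is best known from muscle and fat, so markers of both tissues were set beside it. Of 18 skeletal muscle genes 17 were measured, with a median log2 ratio of -0.022 and array medians of 0.029, 0.062, -0.034 and -0.053. Their summed normalized intensity was 9763 to 11842 in vitamin C livers and 10684 to 14734 in untreated livers. The sarcomere actin gene Acta1 and the muscle creatine kinase gene Ckm had log2 ratios of 0.18, 0.0081, 0.10 and 0.017, and of 0.099, 0.017, 0.033 and 0.017, with mean log2 intensities of 7.31 and 8.31. Eno3, the muscle enolase gene, had 0.31, 0.21, 0.75 and 0.65, above 0 on all 4 arrays. Like Slc2a4 it was highest on replicates 3 and 4, but Slc2a4 was below 0 on replicate 2 (-0.92). Myh2, a fast myosin heavy chain gene, had -0.79, 0.29, -1.21 and -1.30, opposite in sign to Slc2a4 on every array. The array medians of 870 receptor genes of smell had the same signs as Myh2 (-0.14, 0.019, -0.14 and -0.17), so nothing is read from them. The myoglobin gene Mb had -0.084 ± 0.026 (SD, n = 4). Of the 17 genes, 6 were above 0 on all 4 arrays, as 14.8% of all genes were, and 1 was below 0 on all 4. The sign pattern of Slc2a4 (below 0 on replicate 2 alone) was found in 1 of these 17 genes, the myosin light chain gene Mylpf (0.22, -0.026, 0.23 and 0.23), and in 4300 of all 31073 genes.

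Of 14 adipocyte genes 12 were measured, with array medians of -0.066, -0.015, 0.054 and -0.19. Without Thrsp, a lipogenic gene that liver also uses, the summed intensity of the other 11 was 10810 to 14844 in vitamin C livers and 10152 to 12750 in untreated livers. The adipokine genes Adipoq and Lep had mean log2 ratios of -0.10 ± 0.23 and 0.061 ± 0.041 (SD, n = 4). Cfd, the gene of the adipokine adipsin, had 2.02, -0.025, 1.88 and -1.12, high on replicates 1 and 3 and low on replicate 4. The sign pattern of Slc2a4 was found in 1 of the 12, the lipid droplet gene Plin1 (0.085, -0.019, 0.14 and 0.11). The part of muscle or fat RNA in the Slc2a4 values was not tested further.

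Each member was set beside the genes whose 4 log2 ratios lay nearest to its own, by root mean square difference over the 4 arrays among 16958 genes with a symbol. Slc2a4 had the fewest near neighbours: 0 genes lay within 0.1 and 3 within 0.3. These were Hamp2, a paralogue of the hepcidin gene, at 0.77, -1.19, 2.18 and 1.63, Acacb, which encodes the mitochondrial acetyl-CoA carboxylase, at 0.40, -0.95, 1.49 and 1.12, and Chrna4, which encodes a subunit of nicotinic receptors, at 0.39, -1.16, 1.45 and 1.45. Their differences from Slc2a4 were 0.253, 0.264 and 0.285.

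Slc2a3 had the most neighbours within 0.1, with 530 genes, while within 0.3 it had 3665 and Slc2a1 had 3830. The nearest were Odf1, a gene of the sperm tail, at -0.37, 0.071, -0.51 and -0.49, Cyp2b19, a cytochrome gene of keratinocytes, at -0.39, 0.050, -0.52 and -0.44, and the homeobox gene Irx1 at -0.40, 0.049, -0.47 and -0.48, with differences of 0.017, 0.019 and 0.020. Receptor genes of smell, which were looked at after these values had been seen, had the same signs in their array medians (-0.14, 0.019, -0.14 and -0.17 over 870 genes), at a median log2 intensity of 10.2, above the 9.18 of Slc2a3. With these medians taken off, Slc2a3 had -0.26, 0.040, -0.36 and -0.31. Slc2a1 then had -0.27, -0.25, -0.40 and 0.0066, so it was below 0 on 3 of 4 arrays. The part of this shift in the values of Slc2a1 and Slc2a3 was not tested further.

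For Slc2a1, 13 genes lay within 0.1: nearest were Uqcrh, a subunit gene of respiratory complex III (0.063), Itih5, which encodes an inter-alpha-trypsin inhibitor heavy chain (0.070), and Sort1, the sortilin gene (0.072). For the brighter probe of Slc2a2 there were 6, led by Ttc23 (0.046), the gene of the microtubule-severing protein fidgetin, Fign (0.055), and the D-aspartate oxidase gene Ddo (0.069). Likeness to the member is what chose all of these genes, and nothing is read from it.

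**Figure D4:**
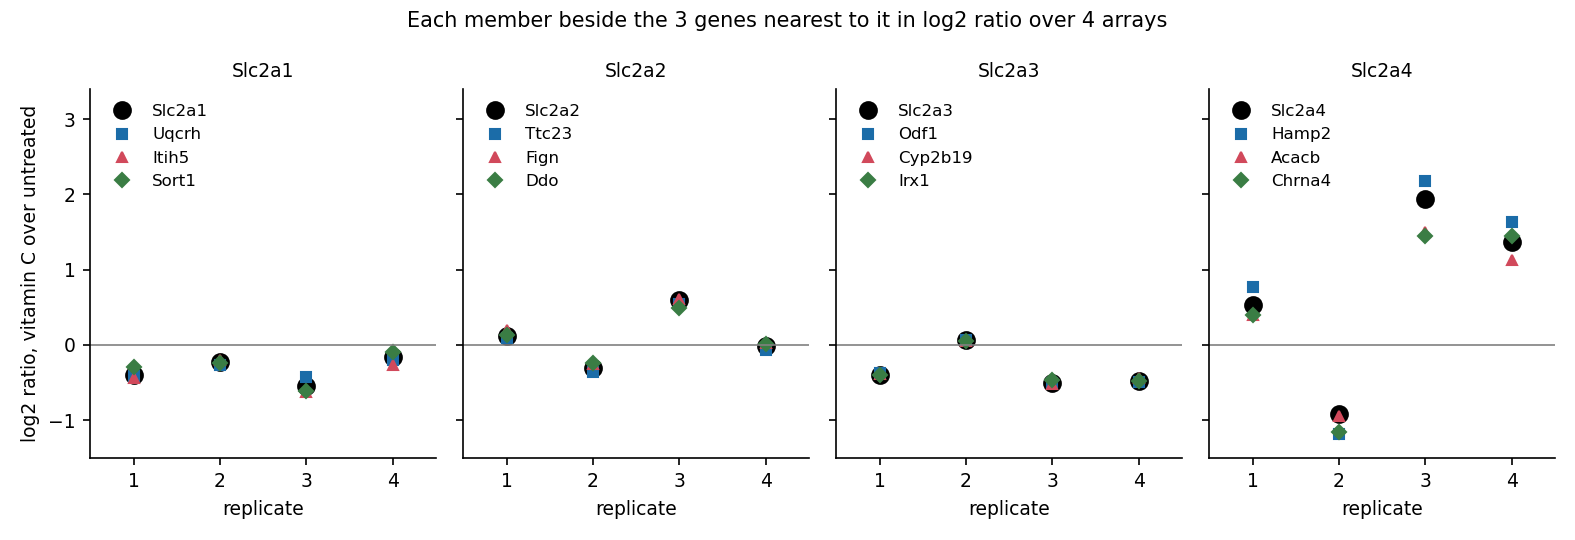
Log2 ratio of vitamin C over untreated (vertical axis) on replicates 1 to 4 (horizontal axis) for each member (black circles) and the 3 genes nearest to it (coloured symbols). The neighbours of Slc2a3 lie on top of it (differences of 0.017 to 0.020), and those of Slc2a4 follow it at differences of 0.253 to 0.285.

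In the rest of the SLC2 family 0 of 7 measured genes passed limma's test, and the median log2 ratio was 0.022, against -0.015 over all genes. The fructose transporter gene Slc2a5 had the highest mean, 0.32 ± 0.40, with 0.51, 0.048, 0.78 and -0.063 on replicates 1 to 4. Slc2a9, which encodes the urate transporter of hepatocytes, had 0.22 ± 0.25 (SD, n = 4), with 0.50 on replicate 3 and 0.36 on replicate 4 but 0.013 and 0.0077 on replicates 1 and 2. Neither mean exceeded the spread between arrays.

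Slc2a8, an intracellular transporter gene, had -0.17 ± 0.19, and Slc2a13, the gene of the proton-coupled myo-inositol transporter, had -0.19 ± 0.13 and was below 0 on all 4 arrays. Slc2a6 was above 0 on all 4 arrays at 0.12 ± 0.062, a condition met by 14.8% of all genes. Slc2a10 and Slc2a12 had 0.022 ± 0.072 and -0.0060 ± 0.083. Slc2a7 was not analysed here. None of these 7 genes had an SD near the 1.24 of Slc2a4.

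**Figure D5:**
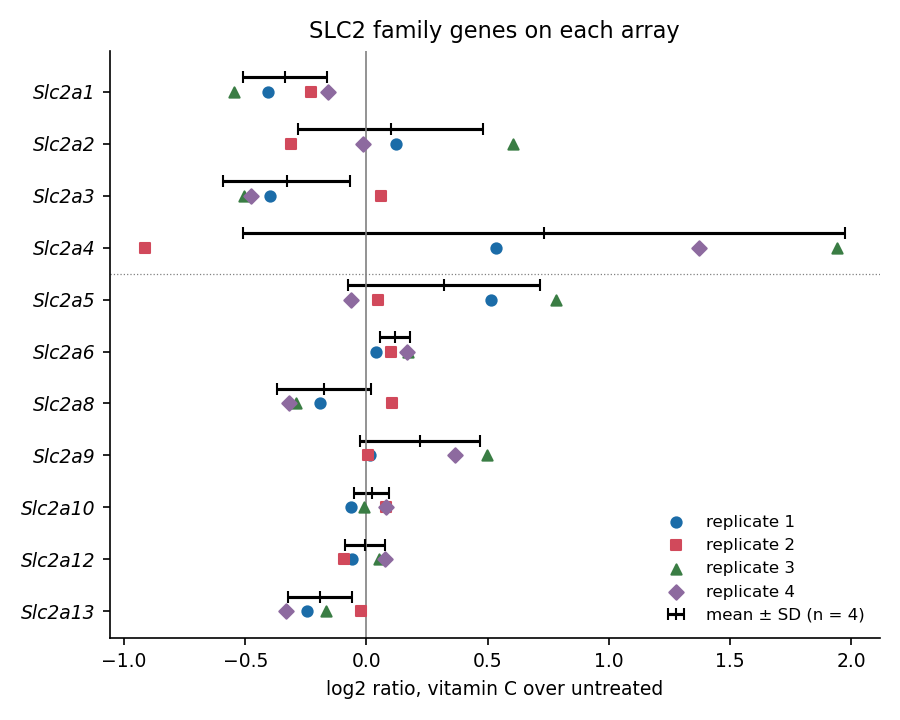
Log2 ratio of vitamin C over untreated (horizontal axis) for the 4 members (above the dotted line, the brighter probe of Slc2a2) and 7 further SLC2 genes (below it). Symbols are the 4 arrays and black bars the mean ± SD; Slc2a4 spans -0.92 to 1.94 and the further genes lie between -0.33 and 0.78.

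Among 9 measured genes of sodium-coupled and other sugar transport, 0 passed and the median was -0.055. Slc5a4a and Slc5a4b, members of the sodium-glucose family, had -0.40 ± 0.32 and -0.29 ± 0.23, both with replicate 2 above 0 (0.047 and 0.053), and Slc5a11, a sodium-coupled inositol transporter gene, had 0.19 ± 0.048 (SD, n = 4). Of the 9 genes of ascorbate transport and dehydroascorbate reduction 0 passed, with a median of 0.086. At an unadjusted p under 0.05 in limma's test there were 4 of these 9 genes, 2 higher and 2 lower. Of all genes 27.7% had such a p, 3465 higher and 5145 lower. Those with the smallest p were Gsto1, whose product reduces dehydroascorbate (0.30 ± 0.12, above 0 on all 4 arrays), Gulo, the gene of the last enzyme of vitamin C synthesis (-0.29 ± 0.15, below 0 on all 4), and Txnrd2, a thioredoxin reductase gene (0.33 ± 0.20, above 0 on all 4; SD, n = 4). The ascorbate carrier gene Slc23a1 had 0.040, -0.29, -0.010 and -0.12 on replicates 1 to 4, and Slc23a2 had 0.49, -0.047, 0.32 and 0.056.

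Glucose that enters by GLUT2 is phosphorylated in the hepatocyte, and glucose-6-phosphatase frees it again for release. Of 9 genes of these steps 0 passed, and the median was 0.055. G6pc, the gene of the catalytic subunit of glucose-6-phosphatase, had 0.45, -0.34, 0.92 and -0.25, which are the signs of the brighter Slc2a2 probe on every array. Hkdc1, a hexokinase gene, had -0.23 ± 0.18, and G6pc3, the phosphatase gene used outside gluconeogenic tissue, had -0.13 ± 0.083 (SD, n = 4).

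Insulin moves GLUT4 to the surface through the insulin receptor, phosphoinositide 3-kinase and AKT. Of 16 measured genes of this path 0 passed, 9 had a mean above 0, against 46.1% of all genes, and the median was 0.011. Those with the smallest p were Cbl, a ubiquitin ligase gene (-0.42 ± 0.22), Pik3r1, the regulatory subunit gene of the kinase (-0.35 ± 0.24), both below 0 on all 4 arrays, and the GTPase gene Rac1 (0.15 ± 0.082; SD, n = 4). Of 20 genes of GLUT4 vesicle traffic 0 passed, with 11 means above 0 (46.1% over all genes) and a median of 0.061. Aspscr1, whose product TUG tethers the vesicles, had 0.59, 0.33, 0.53 and 0.32, and the exocyst gene Exoc7 had 0.44, 0.15, 0.25 and 0.27, both above 0 on all 4 arrays. Sort1, needed to form the vesicles in adipocytes, had -0.29, -0.24, -0.61 and -0.10.

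Among 14 genes that control Slc2a1 and Slc2a3 or the surface level of their products, 0 passed, 12 had a mean above 0 (46.1% of all genes did) and the median was 0.12. The highest means were those of the related arrestin genes Arrdc4 and Txnip, which glucose induces and whose product TXNIP promotes removal of GLUT1 from the cell surface. Arrdc4 had 0.59, 0.14, 1.42 and 0.76 and Txnip had 0.91, -0.15, 0.87 and 0.69 on replicates 1 to 4, where Slc2a1 had -0.41, -0.23, -0.55 and -0.16. Stom, the gene of the GLUT1-binding membrane protein stomatin, had 0.20 ± 0.16 (SD, n = 4). The median of this list was -0.031 with arrays centred on the median in place of loess.

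Of 13 measured genes that control Slc2a2, 0 passed, 2 had a mean above 0 (46.1% of all genes did), 11 had one below 0, and the median was -0.14. Nr1h2, which encodes the liver X receptor beta, had 0.26 ± 0.18, Rfx6, a factor of islet and gut cells, -0.43 ± 0.40, and Gata4 -0.32 ± 0.31 (SD, n = 4). Rfx6 and Gata4 were above 0 on replicate 2 alone (0.14 each). The array medians of the 870 receptor genes of smell had the same signs, so nothing is read from this pattern. Of 15 genes that control Slc2a4, 0 passed and the median was 0.073. Thra, the thyroid hormone receptor alpha gene, had 0.29, 0.11, 0.40 and 0.40. Mef2a, which encodes a factor that binds the Slc2a4 promoter in muscle, had -0.37, 0.047, -0.61 and -0.54. These signs were opposite to those of Slc2a4, but they were also those of the receptor genes of smell, so nothing is read from them. Myod1, a muscle factor, had -0.17 ± 0.073.

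Markers of the other cells of liver were set beside the members, because Slc2a1 and Slc2a3 are used by blood cells and endothelium and Slc2a1 by hepatocytes near the central vein in rats. The 10 pericentral markers had array medians of 0.12, -0.13, -0.047 and -0.36, with summed intensities of 274501 to 396567 in vitamin C livers and 338545 to 397613 in untreated livers. Glul, the glutamine synthetase gene and their defining marker, had -0.54, -0.32, -0.14 and -0.37, below 0 on all arrays. Of the 10 genes 3 were below 0 on all arrays, as 16.1% of all genes were, and 8 had a mean below 0. Of all genes, 46.1% had a mean above 0. Cyp2e1, a cytochrome gene, had 0.47, -0.29, 0.0079 and -0.90, and Axin2 and Tbx3 had means of 0.14 and 0.20. The 9 measured periportal markers had array medians of -0.23, -0.072, -0.18 and 0.27.

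The 9 measured erythroid markers had array medians of 0.073, 0.034, -0.21 and 0.081, and 5 of the 9 had a mean above 0 (46.1% of all genes did). Hba-a1, an alpha globin gene, had 0.33, -1.54, -1.52 and -0.24 and the lowest mean of the list. Alas2 and Slc4a1, the next brightest, had 0.037 ± 0.17 and -0.18 ± 0.17 (SD, n = 4). The 9 platelet markers had a median of -0.10. Ppbp and Treml1 had -0.22 each and were above 0 on replicate 2 alone, as the array medians of the 870 receptor genes of smell were. The summed intensity of the 9 platelet markers was 6340 to 7196 in vitamin C livers and 7213 to 7796 in untreated livers. Among single genes, 2.54% had all 4 treated levels below all 4 untreated levels. No such share was computed for sums over lists, so nothing is read from the separation of a sum. Of the 9 markers, 2 had a mean above 0 (46.1% of all genes did). For the 8 neutrophil genes measured, the sums were 4293 to 4965 in vitamin C livers and 4368 to 4860 in untreated livers.

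Macrophage genes, 10 in number, had array medians of -0.24, 0.32, 0.059 and 0.45, and endothelial genes, also 10, had a median of 0.025. Medians were -0.00045 for 8 genes of T and NK cells, -0.053 for 9 of stellate cells and fibroblasts, -0.028 for 8 of cholangiocytes and 0.0039 for 9 of pancreas. The 8 measured hepatocyte genes had a median of -0.41, with F2 at -0.48 ± 0.049 and Alb at -0.70 ± 0.25 (SD, n = 4). This median depended on the normalization: it was -0.68 without loess and -0.28 with Agilent's processed signals. Of the 8 genes, 6 had a mean below 0, while Ttr and Hpx had means of 0.11 and 0.0068. Of all genes, 46.1% had a mean above 0. The hepatocyte genes had summed intensities of 1035588 to 1276003 in vitamin C livers against 1454470 to 1606693 in untreated livers. Among single genes, 2.54% had all 4 treated levels below all 4 untreated levels, but no such share was computed for sums over lists. In each of these marker lists 0 genes passed limma's test. The part of cell composition in the values of the 4 members was not tested.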

How the data were processed

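The scanner files hold spot intensity values, deposited by the authors as scanner output; per the file headers, version 10.5.1.1 of Agilent Feature Extraction wrote it. Used were each channel's median signal, median local background and processed signal; the deposited log10 ratio entered no result. A deposited table of log2 values was also used; limma is named, without its role, in the submitters' processing notes. Against the scanner's untreated over treated log2 ratios its columns had r = 0.950 to 0.980, so it runs as untreated over treated, and its sign was turned where used; its medians were 0.0014 to 0.0050 and its exact scale is unknown.

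Ratios here put Cy3 on top, hence vitamin C over untreated by the labels' dyes. Backgrounds were corrected with normexp (offset 50), loess normalized each array (weight 0 for controls), outlier spots were left out and spots of a probe averaged. Levels per liver were taken after loess and Aquantile. Of 41174 probes, 25097 (61.0%) matched 1 symbol in a RefSeq table of GRCm38.p6. A gene was its probe of highest mean intensity, kept where 3 of 4 arrays had it well above background in 1 channel or both (31073, of which 17082 had a symbol). Each gene's mean log2 ratio was tested in limma (lmFit, eBayes; Benjamini-Hochberg, 0.05), and the test was checked on simulated data. R 4.3.3, limma 3.58.1, statmod 1.5.0 and Python 3.11.15 were used.

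The members and lists were chosen with earlier results of these data known. Named were all probes of the members, the measured genes of the rest of the SLC2 family, and Slc23a1, Slc23a2 and G6pc. Also named were up to 3 genes of smallest p in each other pathway list and the 3 genes nearest each member. Of each marker list, the 3 brightest genes or examples were named. Acta1, Ckm, Mylpf, Adipoq, Lep, Cfd, Plin1, Axin2, Tbx3, Ttr and Hpx were named after their values had been seen. Not every gene that the rule names is printed: some genes of the marker lists and some others are not reported here. The number of arrays limits the precision.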

Additional observations from a re-analysis of the deposited data

Results flagged for a closer look

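Of 126 sets of 4 values examined, 8 had 1 array far from the other 3 by Dixon's criterion, about as many as chance gives (about 1 in 20), and none of the 5 probes of the members was among them. Replicate 2 stood apart for the array median of GLUT4 vesicle traffic (-0.018), and for the log2 ratios of Cd3e (0.081), Ltf (0.19), Oat (-0.65) and Irx1 (0.049). Replicate 3 stood apart for the array median of the erythroid genes (-0.21). Replicate 4 stood apart for Spp1 (-0.50) and for Gls2 (0.50).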

How the results depend on the processing

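The mean log2 ratios of Slc2a1 and Slc2a3 were below 0 under all 16 alternatives run for them (-0.49 to -0.23 and -0.46 to -0.22). That of Slc2a4 was above 0 under all 16 (0.33 to 1.28). With 1 probe each, these genes could not move when the filter on dim probes was dropped or tightened, or when probes were averaged. The separate-channel fits also returned the main means. Slc2a2 ran from -0.089 to 0.24 and was above 0 under 14 of 16, but the filters and separate-channel fits left it unchanged. The remaining alternatives reused the arrays on which the members were picked, so these counts do not measure robustness. In the deposited log2 table, with its sign turned, the authors' values averaged -0.33, 0.11, -0.36 and 0.79 for Slc2a1 to Slc2a4. The count of genes past the threshold was 0, became 9634 without loess and 882 in separate channels under a random replicate block of arrays. Dropping 1 array gave between 0 and 8753 genes, and 8753 came without replicate 2; with no replicate block it was 0 (4467 at an unadjusted p under 0.05). Of 161 list medians under alternatives, 136 moved by less than the spread between arrays.

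Without loess the medians were -0.022 (ascorbate transport), -0.11 (glucose phosphorylation), -0.097 (insulin signalling), -0.025 (GLUT4 traffic), -0.031 and -0.069 (regulators of Slc2a1 with Slc2a3, and of Slc2a4), 0.073 (muscle), 0.034 (adipocyte), -0.68 (hepatocyte), -0.20 (platelet), 0.16 (neutrophil), -0.068 (endothelial) and -0.19 (stellate). With Agilent's processed signals they were 0.021 (adipocyte), -0.18 (platelet), 0.11 (neutrophil) and 0.063 (pancreas). With no filter on dim probes they were -0.043 (neutrophil) and 0.050 (T and NK cells). With an array left out, ranges were 0.014 to 0.064 (ascorbate transport), -0.064 to 0.11 (glucose phosphorylation), -0.020 to 0.12 (endothelial) and -0.16 to 0.066 (stellate). The cause was not tested. Taking off the running median over intensity, and taking off the olfactory receptor genes' array medians, were added after seeing the data.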
